A study of Mus musculus with 10 samples.

Results

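*Apln*, which encodes the secreted peptide apelin, and *Aplnr*, which encodes its receptor, were followed in single endothelial cells of mouse ear skin. Both genes were taken by name, as 2 of the 46517 Ensembl genes in the count tables. Blood endothelial cells (BECs) were the cells in which *Flt1*, *Emcn* and *Podxl* together reached at least 300 CPM (counts scaled to a common library size) and exceeded *Prox1*, *Flt4* and *Mmrn1*. Lymphatic endothelial cells (LECs) met the reverse rule. The cells were selected on the summed CPM of these 6 markers, and *Apln* and *Aplnr* were chosen by their levels in earlier results of these data, so the contrast of BECs with LECs is described without a test.

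All mice were 5 wk old. The 5 mutant mice were Pik3caH1047R;Cdh5-CreERT2 and Cre+, and they had received 4-hydroxytamoxifen (4-OHT) on the ears at 3 wk of age, at 10 mg/ml in acetone. In this line Cre is driven by the pan-endothelial *Cdh5* promoter, and recombination switches on an activated PI3K catalytic subunit in BECs and LECs alike. Control 1 was an untreated C57BL/6J mouse, and control 2 was a Cre- mouse of the mutant line that received the same 4-OHT. The study asked how this activation alters each kind of dermal vessel.

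Apelin is made as a precursor from which proteases release short C-terminal peptides, and these bind a G protein–coupled receptor on the cell that made them or on its neighbours. In growing vessels the ligand is best known from sprouting tip cells and the receptor from the capillaries and veins behind them. *Apela* encodes the other ligand of the receptor.

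The coding sequence of *Apln* is shown because the ligand that the counts stand for is its last stretch. It comes from GENCODE vM21 (GRCm38), spans chrX:48028299-48034505 on the minus strand and holds 77 codons before the stop. The gene lies at chrX:48025146-48034853 in 3 exons. Capitals mark the last 39 coding bases, the 13 codons of the apelin-13 peptide.

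Apln: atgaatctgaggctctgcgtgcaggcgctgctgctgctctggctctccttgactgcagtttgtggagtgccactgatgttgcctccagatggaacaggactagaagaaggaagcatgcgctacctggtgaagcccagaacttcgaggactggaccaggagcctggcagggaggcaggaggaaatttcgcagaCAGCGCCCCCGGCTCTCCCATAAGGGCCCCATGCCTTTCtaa

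*Aplnr* (ENSMUSG00000044338) lies at chr2:85136225-85139923 on the plus strand, and its full-length transcript is a single exon of 3699 bases with 377 codons. *Apln* (ENSMUSG00000037010) has an exonic length of 3149 bases. No exon of another gene annotated in GENCODE vM21 overlapped the exons of either. Whether this also held in the annotation used for counting was not tested.

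After filtering, 3248 of 3456 wells remained, of which 1490 were BECs and 1641 LECs, or 45.9% and 50.5%. The labels name the sorted cells LECs, whereas the study's methods describe a sort of both LECs and BECs. Plates held 99738886–151102969 reads, and the median BEC held 187907–329994 reads in the 7 mice. Control 1 and mutants 3–5 were female by *Xist* and Y-linked reads. Mutants 1–4 stood on plates of one id series, and mutant 5 and both controls on plates of another. Genotype and plate series therefore cannot be told apart, except through mutant 5. Values of fibroblast and mural markers also differed in BECs: the 5 fibroblast genes summed to 541–675 CPM in the controls and 16.1–60.2 CPM in the mutants, and the 5 mural genes to 496–888 and 156–343 CPM. Their part in the results below was not tested.

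*Apln* was higher in the BECs of every mutant mouse than in those of either control. Its level in summed BECs was 108 CPM in control 1 and 193 CPM in control 2. It was 738, 1255, 996, 1005 and 632 CPM in mutants 1–5. The groups did not overlap, and the mean rose 6.15-fold, from 151 ± 60.1 CPM (SD, n = 2) to 925 ± 245 CPM (SD, n = 5). In edgeR's quasi-likelihood test over 19315 genes, *Apln* rose by 2.69 ± 0.36 (log2, SE) with an adjusted p of 0.0117. Of the 2 members 1 was called, against 2.12% of all genes tested, and it was higher, as 1.51% of genes were. Both genes were chosen with earlier results of these data known. P-values and counts for the 2 members, here and below, are therefore not an independent test. Leaving out a mouse gave adjusted p-values of 0.012–0.0494. Mutant 5, the only mutant on plates of the controls' series, stood 4.20-fold above the control mean. With the plate series as a covariate the change was 2.1 and the adjusted p 0.0974.

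For *Aplnr* in BECs no difference between genotypes passed the test. The controls had 638 and 757 CPM. Mutants 1–5 had 946, 855, 977, 936 and 490 CPM. Mutants 1–4 were thus above both controls and mutant 5 below both. The mean was 697 ± 84.0 CPM (SD, n = 2) in controls and 841 ± 201.3 CPM (SD, n = 5) in mutants, and the edgeR change of 0.33 ± 0.26 had an adjusted p of 0.513. Without mutant 5 the change was 0.47 and the adjusted p 0.0797. With the plate series as a covariate the sign turned, to −0.48 (edgeR adjusted p = 0.373). In bulk sums of this kind, a larger share of cells with a transcript and more transcript per cell cannot be told apart, so single cells were examined next.

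**Figure D1:**
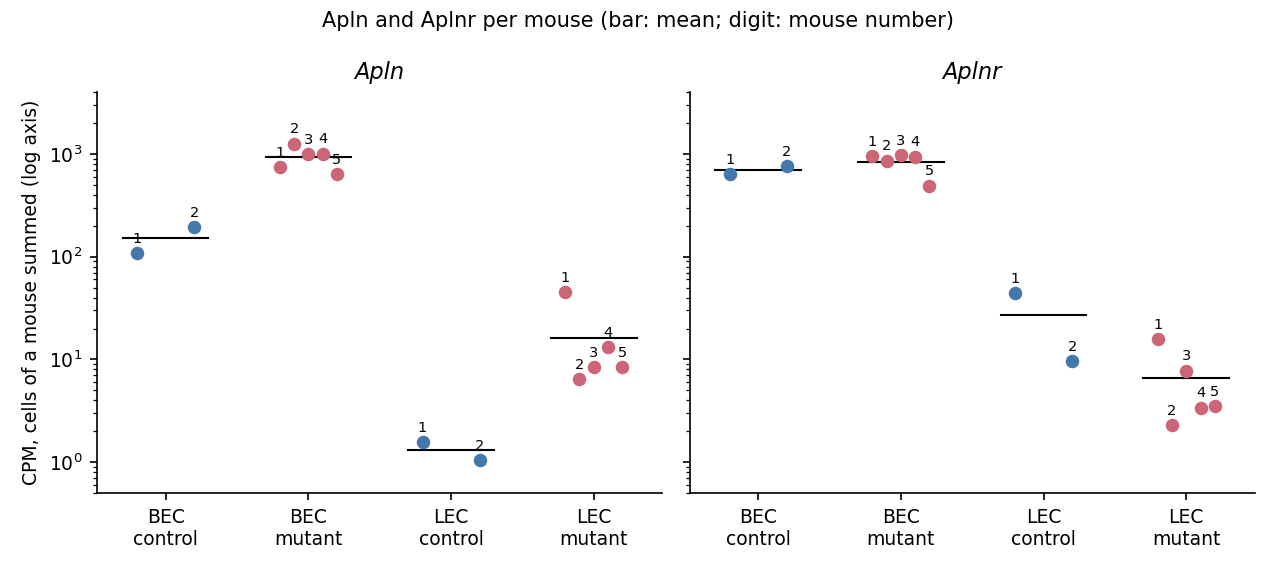
CPM of *Apln* (left) and *Aplnr* (right) in the summed BECs and LECs of each mouse, on a log axis; points are mice, labelled by their number, and bars are group means. *Apln* in mutant BECs (632–1255 CPM) lies above both controls, whereas *Aplnr* in BECs spans 490–977 CPM with mutant 5 lowest.

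Per kilobase of exon, the ligand was below its receptor in control BECs and mostly above it in mutant BECs. The ratio of *Apln* to *Aplnr* CPM per kilobase was 0.199 and 0.2997 in the controls. In mutants 1–5 it was 0.917, 1.72, 1.20, 1.26 and 1.52. The groups did not overlap, and mutant 1 was the only mutant with a ratio under 1. Mutants 3 and 5 had 2 plates each, which measured *Apln* at 948 and 1059 CPM and at 568 and 707 CPM.

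In single BECs more mutant than control cells carried *Apln*. As deposited, 319 of 1174 mutant BECs (27.2%) and 12 of 316 control BECs (3.8%) were at 1000 CPM or more, while 277 and 243 were under 10 CPM. To set depth aside, each cell was thinned to 50000 reads, where 1 read equals 20 CPM. At least 1 thinned read of *Apln* was found in 42 of 159 BECs of control 1, or 26.4% (95% Wilson interval 20.2–33.8%). It was found in 32 of 157 BECs of control 2, or 20.4% (14.8–27.4%). In mutants 1–5 the shares were 74.3% (67.5–80.1%), 69.6% (62.6–75.8%), 75.5% (70.5–79.8%), 69.5% (62.3–75.9%) and 70.0% (64.6–74.9%). Every mutant mouse thus had a share well above both controls, and mutant 5, on plates of the controls' series, resembled the other mutants. The mean share was 71.8 ± 2.88% (SD, n = 5) against 23.4 ± 4.27% (SD, n = 2). The two-sided exact permutation p was 0.0952, the smallest that the 21 splits of 7 mice allow, and 0.19 after Benjamini-Hochberg adjustment over the 4 share comparisons.

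A single read marks little here, since single reads of *Apln* were common in mutant LECs as well. Without thinning, *Apln* had at least 1 read in 94.2% of mutant BECs but also in 70.2% of mutant LECs (means of 5 mice). A stricter rule of 5 thinned reads, or 100 CPM, was therefore added after the data were seen. It was met by 0 of 183 and 0 of 175 LECs of the controls (upper Wilson limits 2.06% and 2.15%), and by 1.31 ± 0.833% of LECs in the mutants (SD, n = 5). In BECs it was met by 15 and 26 cells of the controls and by 78, 96, 168, 74 and 139 cells of mutants 1–5. The shares were 9.43% and 16.6% in the controls and 42.5–52.2% in the mutants, again without overlap. These cells held nearly all *Apln* reads of the BECs of their mouse, 95.5–98.9% in controls and 98.5–99.7% in mutants. Among them the median level was 851 and 510 CPM in the controls and 937–1600 CPM in the mutants.

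The receptor was already common in control BECs. At least 1 thinned read of *Aplnr* was found in 130 of 159 and 108 of 157 BECs of the controls, or 81.8% (95% Wilson interval 75.0–87.0%) and 68.8% (61.2–75.5%). The shares of mutants 1–5 were 88.0%, 72.3%, 86.1%, 73.6% and 64.7%. These shares overlapped, with means of 75.3 ± 9.17% (SD, n = 2) and 76.9 ± 9.85% (SD, n = 5) and an exact permutation p of 0.762 (adjusted 0.762). At 100 CPM *Aplnr* marked 45.3% and 51.6% of control BECs. It marked 66.7%, 63.0%, 70.3%, 62.1% and 43.6% of BECs in mutants 1–5, where mutant 5 was again the lowest (exact permutation p = 0.286, adjusted 0.381). Median *Aplnr* levels in the cells at or above 100 CPM were 1252 and 1077 CPM in controls and 780–1314 CPM in mutants.

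**Figure D2:**
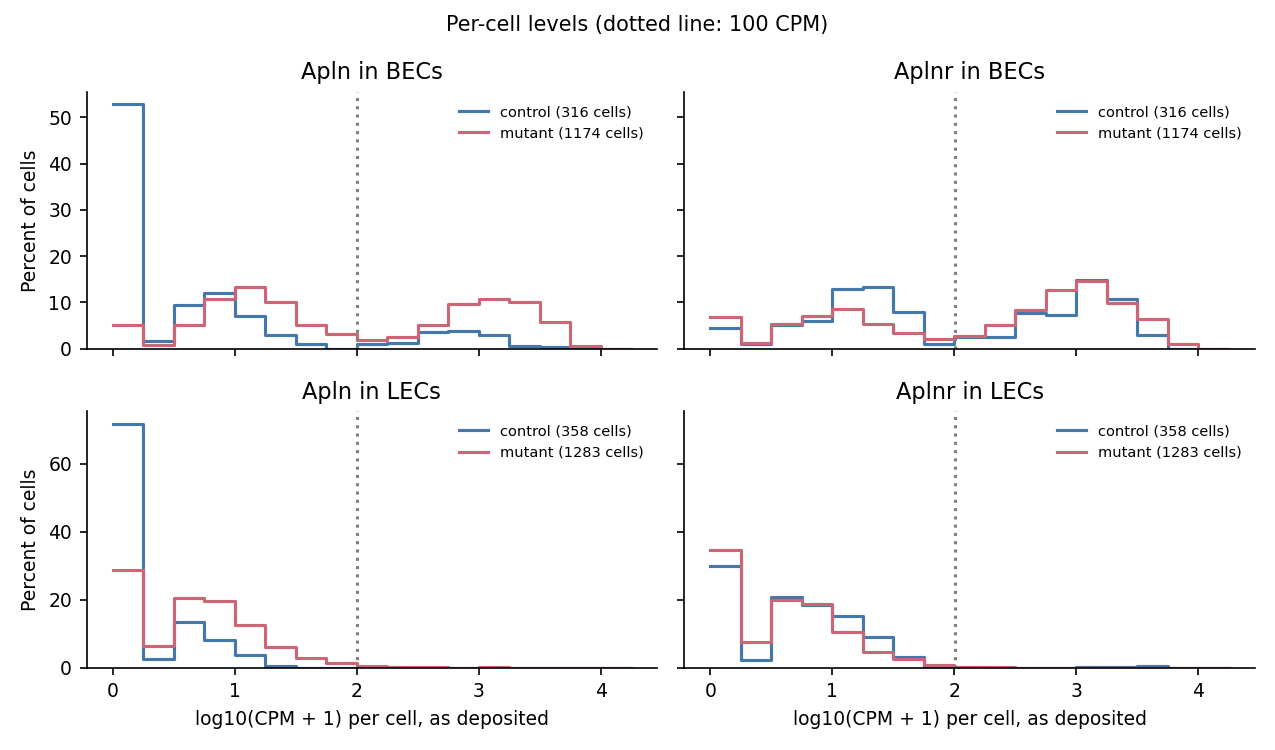
Percent of cells (vertical axis) by log10(CPM + 1) of *Apln* (left) and *Aplnr* (right) in BECs (top) and LECs (bottom), with cells pooled over the mice of a genotype. In BECs both genes have a mode above the dotted line at 100 CPM, which for *Apln* holds far more mutant than control cells; in LECs few cells reach it.

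In LECs both members were low. *Apln* was at 1.57 and 1.05 CPM in the controls. It was at 44.9, 6.42, 8.41, 13.2 and 8.38 CPM in mutants 1–5. All mutants were above both controls, and mutant 1 stood far from the rest. The edgeR change of 3.65 ± 0.95 had an adjusted p of 0.0807, so it did not pass, and neither did *Aplnr*, so 0 of the 2 members were called against 2.76% of 19758 genes (1.96% higher and 0.805% lower). Both had an unadjusted p under 0.05 (0.00451 and 0.0302), and DESeq2 called *Apln* (adjusted p = 3.34e-05). The share of LECs with a thinned *Apln* read was 6.62 ± 5.32% (SD, n = 2) in controls and 25.7 ± 6.40% (SD, n = 5) in mutants, without overlap (exact permutation p = 0.0952, adjusted 0.19).

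The LEC signal of *Apln* was a small fraction of the BEC signal, and in some mutants much of it sat in few cells. It was 1.46% and 0.542% of the BEC level in the controls and 6.08%, 0.512%, 0.844%, 1.31% and 1.33% in mutants 1–5. Other genes of BECs spanned a wide range by the same measure, from 0.249–2.04% for *Flt1* and 0.419–5.25% for *Selp* to 16.1–35.4% for *Plvap* and 26.1–66.4% for *Emcn*, of which *Flt1* and *Emcn* are part of the gate. In mutant 1, 4 of 184 LECs were at or above 100 CPM and held 83.2% of the LEC *Apln* reads, with 74.1% in a single cell. In mutants 2–5 such cells numbered 1, 8, 1 and 4 and held 40.3%, 25.1%, 64.9% and 42.3%, and the controls had 0. Without such cells the LEC level was 3.86–7.65 CPM in the mutants, still above the 1.57 and 1.05 CPM of controls. The 4 high cells of mutant 1 had a median of 367 CPM for the BEC markers of the gate, against 483 CPM over all LECs of that mouse. In mutants 2–5 the medians of the high cells were 350, 491, 64.0 and 276 CPM, against 508, 443, 485 and 400 CPM. Both marker sums reached 300 CPM in 3, 1, 6, 0 and 2 high cells of mutants 1–5. The part of RNA from other wells in these reads was not tested.

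*Aplnr* in LECs was 44.2 and 9.65 CPM in the controls and 15.8, 2.30, 7.75, 3.40 and 3.52 CPM in mutants 1–5. The ranges overlapped, since mutant 1 was above control 2. The edgeR change was −2.04 ± 0.78 (adjusted p = 0.199). In control 1, 4 of 183 LECs held 79.7% of these reads. The share of LECs with a thinned *Aplnr* read was 43.7% and 12.6% in the controls and 15.3–28.8% in the mutants (exact permutation p = 0.571, adjusted 0.762). As a test of the difference, the mutant effect in BECs minus that in LECs was −0.52 ± 0.89 for *Apln* (edgeR adjusted p = 0.919) and 2.28 ± 0.86 for *Aplnr* (adjusted p = 0.362). Neither was called, against 0.191% of all genes (0.16% higher and 0.0319% lower). *Aplnr* had an unadjusted p of 0.0294, and DESeq2 called neither. *Apela* was all but unread, with 1 and 2 reads in the BECs of mutants 1 and 3, 7 reads in the LECs of mutant 1 and 0 elsewhere.

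BECs were then clustered without *Apln* and *Aplnr*, and the clusters were named by markers from fixed lists. Since the clusters were built from the same cells, levels across them are a description. Cluster 1 (318 cells) was capillary BEC-like, with *Rgcc*, *Cd36*, *Fabp4*, *Gpihbp1*, *Car4*, *Timp4* and *Btnl9* raised. Clusters 2, 4 and 5 (310, 196 and 168 cells) were venous BEC-like, with *Selp*, *Sele*, *Vwf* and *Lrg1* raised in each. Cluster 6 (115 cells) was arterial BEC-like, cluster 9 (39 cells) cycling-like and cluster 8 (46 cells) keratinocyte-like. Clusters 3 and 7 (247 and 51 cells) stayed unnamed, and cluster 3 was led by *Cxcl12*, *Cst3* and *Pltp*.

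*Apln* was highest in the venous BEC-like clusters 2 and 4, which held cells of mutant mice alone. Its level in cluster 2 was 1751, 2404, 2125, 1998 and 1142 CPM in mutants 1–5. In cluster 4 it was 894, 1483, 1260, 1583 and 842 CPM. Cluster 2 was above cluster 4 in each of the 5 mice, with means of 1884 ± 477 and 1212 ± 336 CPM (SD, n = 5). *Mmp2*, *Itih5* and *Olfml2a* led cluster 2, and *Bgn*, *Eln* and *Mmp2* led cluster 4. The cycling-like cluster 9, also without a control cell, followed with 752 ± 381 CPM in the 4 mutants with at least 5 such cells. The arterial BEC-like cluster had the lowest *Apln* of the named endothelial clusters, at 12.8 ± 9.16 CPM over the 7 mice, and 2 of its 115 cells reached 100 CPM.

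In clusters 1, 3 and 5, which held cells of both genotypes, the *Apln* levels of mutants and controls overlapped. In the capillary BEC-like cluster 1 it was 21.3 and 296 CPM in the controls and 118, 120, 257, 68.8 and 127 CPM in mutants 1–5. In cluster 3 it was 241 and 226 CPM in the controls and 63.1–349 CPM in the mutants. In the venous BEC-like cluster 5 it was 198 and 1.68 CPM in the controls and 59.4–191 CPM in the mutants. In the arterial BEC-like cluster 6, also shared, all 5 mutants (7.61–26.2 CPM) were above both controls (3.51 and 1.99 CPM). These low values came from 10–24 cells per mouse, and all but mutant 5 lay under the 20 CPM of 1 thinned read. The difference was not tested, and the share of all genes that separate the mice likewise was not counted. Of the 555 mutant BECs with at least 100 CPM of *Apln*, 459 or 82.7% were in clusters 2, 4 and 9. Outside these clusters the mutant BECs had 86.8, 94.7, 254, 139 and 124 CPM of *Apln*, a range that included the 108 and 193 CPM of controls. Cluster sizes were not compared between genotypes, because the genes that define the clusters differed between them.

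*Aplnr* had another order. It was highest in the capillary BEC-like cluster 1, at 1274 and 1490 CPM in the controls and 1951, 2105, 2275, 2510 and 1218 CPM in mutants 1–5. There 259 of 318 cells, or 81.4%, reached 100 CPM. Clusters 2, 3 and 5 followed at 717 ± 122 (n = 5), 723 ± 454 (n = 7) and 771 ± 359 CPM (n = 7), means that differed by less than their SDs. Cluster 4 had 520 ± 149 CPM and the arterial BEC-like cluster 145 ± 176 CPM. Outside clusters 2, 4 and 9, mutants 1–4 had 1241–1322 CPM of *Aplnr*, above the 638 and 757 CPM of the controls, and mutant 5 had 459 CPM.

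**Figure D3:**
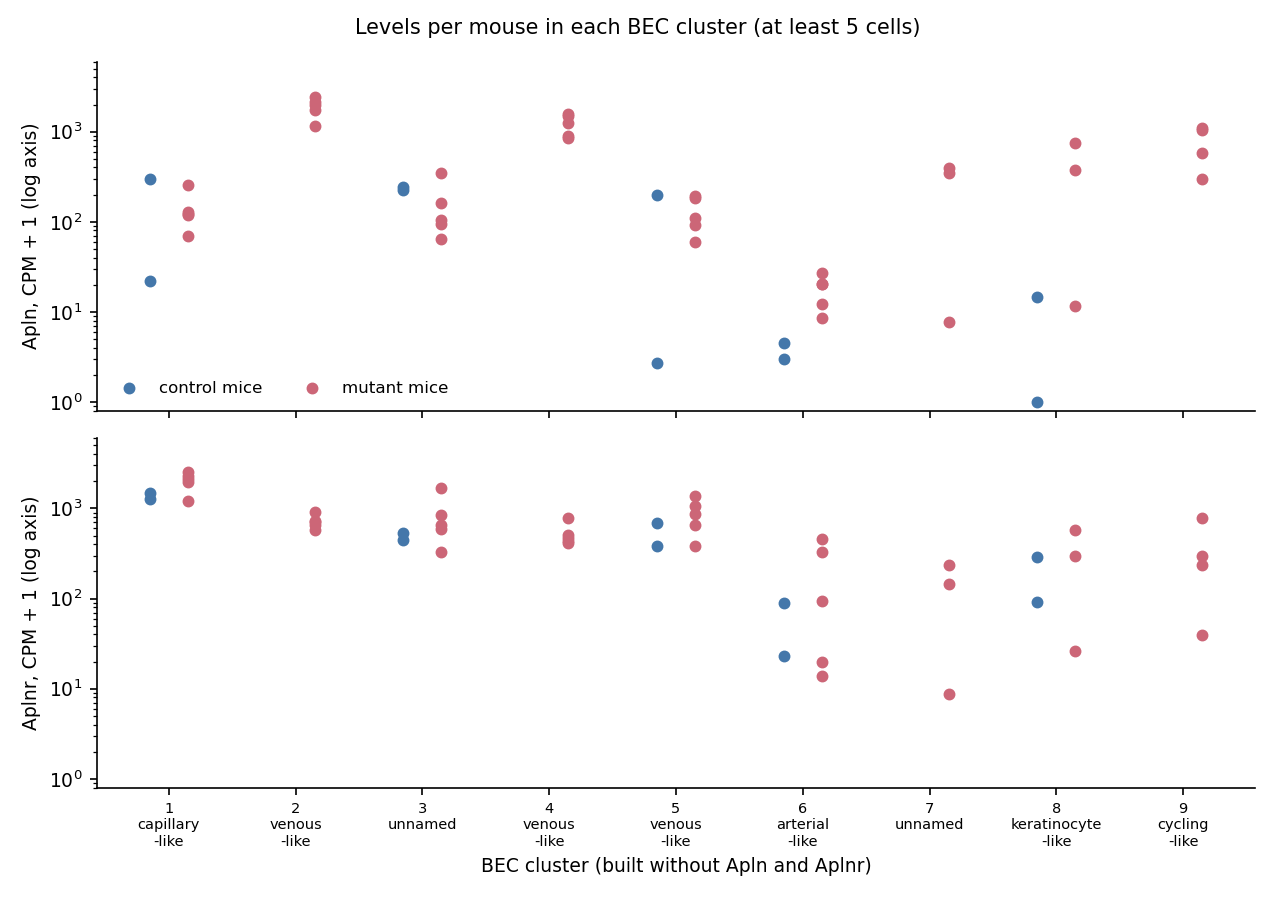
CPM + 1 of *Apln* (top) and *Aplnr* (bottom) on a log axis in each BEC cluster, with 1 point per mouse that has at least 5 cells there. *Apln* is highest in clusters 2 and 4, which have mutant mice only, and *Aplnr* is highest in the capillary BEC-like cluster 1 in both genotypes.

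Ligand and receptor were often read in the same BEC. With at least 1 thinned read of each, both were found in 60 of 316 control and 669 of 1174 mutant BECs. Per mouse the share with both was 0.989–1.09 times the product of the single shares. By this rule most BECs had *Aplnr*, which limited how far the ratio could rise above 1. This ratio therefore cannot decide whether the genes were read together more often than their shares give. At 100 CPM both were found in 7 of 159 and 16 of 157 BECs of the controls, and in 30.6%, 38.0%, 38.8%, 27.0% and 24.4% of BECs in mutants 1–5. The ratio to the product was then 1.02–1.22 and above 1 in all 7 mice. Of the 555 mutant BECs at or above 100 CPM of *Apln*, 375 or 67.6% also reached that level of *Aplnr*, against 54.1% of the other mutant BECs. Across BECs of a mouse, Spearman's rho between both genes was −0.02 on average (range −0.18 to 0.08, 157–330 cells per mouse). The cells share libraries and depth was thinned.

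Levels of each member were tested within mice by the other member, and none of these tests passed in edgeR. Cells positive by 1 thinned read were summed per mouse and compared with negative cells, with the mouse as a block. *Aplnr* differed by −0.22 ± 0.16 between *Apln*-positive and *Apln*-negative BECs (edgeR adjusted p = 0.78). *Apln* differed by 0.60 ± 0.17 between *Aplnr*-positive and *Aplnr*-negative BECs (edgeR adjusted p = 0.285), a difference that DESeq2 called (0.56, adjusted p = 0.0463). At 100 CPM *Aplnr* was lower in *Apln*-positive BECs whichever mouse was left out (−0.61 to −0.34, edgeR adjusted p 0.0544–0.397), although the co-detection ratio was above 1. *Apln* was higher in *Aplnr*-positive BECs (0.38 to 0.65, edgeR adjusted p 0.226–0.433), which DESeq2 called over all mice (0.55, adjusted p = 0.0281).

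**Figure D4:**
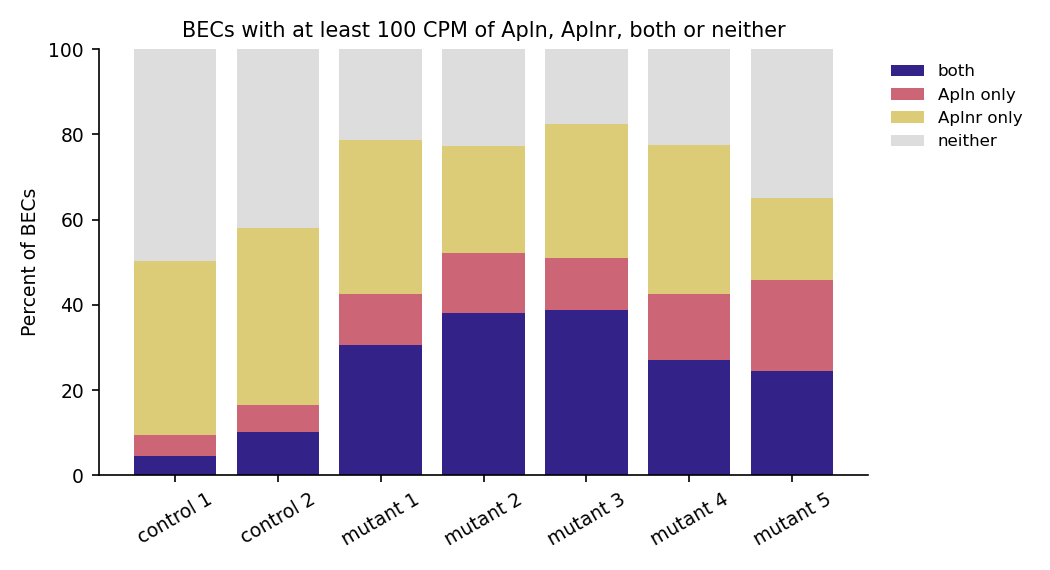
Percent of BECs of each mouse with at least 100 CPM of *Apln*, of *Aplnr*, of both or of neither after thinning, as stacked bars that sum to 100. Cells with both genes make up 4.40% and 10.2% of control BECs and 24.4–38.8% of mutant BECs.

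Some arterial and capillary markers were lower in *Apln*-positive than in *Apln*-negative BECs of the same mouse. By the rule of 1 thinned read, 65 of 15326 genes were called (0.424%), 34 higher (0.222%) and 31 lower (0.202%). Of 7 arterial markers 2 fell, *Hey1*, a Notch target (−1.86 ± 0.24, adjusted p = 0.0219), and *Sox17*, an arterial transcription factor (−0.76 ± 0.12, adjusted p = 0.033). Of 7 capillary markers 3 fell, the fatty acid transporter *Cd36* (−0.98 ± 0.11), *Timp4* (−1.17 ± 0.19) and *Btnl9* (−1.50 ± 0.24). Of 7 venous markers *Vwf*, which encodes von Willebrand factor, rose (0.95 ± 0.15, adjusted p = 0.035). The medians were −1.65, −1.05 and 0.59, against 0.02 over all genes tested. Markers of other cells differed as well between positive and negative cells. Their medians over mice were 75.8 and 294 CPM for keratinocyte genes, 33.2 and 121 CPM for fibroblast genes and 224 and 518 CPM for mural genes. Positive cells were deeper (medians over mice 264488 and 237817 reads). The part of these in the contrast by 1 thinned read was not tested.

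The genes that rose most in *Apln*-positive BECs were *Mras* (78.8 against 28.1 CPM, mean of 7 mice), *Itih5* (599 against 221 CPM), *Cysltr1*, a leukotriene receptor (87.7 against 35.9 CPM), and *Cfb*, complement factor B (352 against 139 CPM). *AU021092*, *Bace2*, *Csrp2* and *Ehd4* followed, with changes of 1.02 to 1.19. The genes that fell most were the estrogen receptor *Gper1* (7.88 against 71.6 CPM), *Tox2* (5.70 against 46.1 CPM), *Tmem100* (4.03 against 31.4 CPM) and the heat shock gene *Hspa1a* (5.71 against 34.0 CPM). *Eps8l2*, *Hey1*, *Msx1* and the water and glycerol channel *Aqp7* fell by 1.73 to 1.87. The number of calls depended on the mice used. It was 0 without mutant 2, mutant 3 or mutant 5 in turn (1249, 1158 and 1170 genes at an unadjusted p under 0.05), 3 without control 1, 18 without mutant 1, 16 without mutant 4 and 147 without control 2.

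At 100 CPM the same contrast called 269 of 15440 genes (1.74%, with 0.635% higher and 1.11% lower), and 64–392 with a mouse left out (fewest without mutant 3, most without control 2). Of the arterial markers 6 of 7 fell, among them the gap junction genes *Gja4* (−4.27 ± 0.42) and *Gja5* (−3.28 ± 0.64) and *Sema3g* (−5.79 ± 0.58). Of the capillary markers 5 of 7 fell, among them *Car4* (−4.85 ± 0.44), *Rgcc* (−1.95 ± 0.36) and *Cd36* (−1.64 ± 0.21). *Vwf* (0.79 ± 0.10) and *Nr2f2*, the transcription factor of venous identity (1.07 ± 0.20), rose, and *Ackr1* was at −0.31 ± 0.38 without passing. *Gja4*, *Sema3g*, *Car4*, *Cd36* and *Vwf* passed whichever mouse was left out, whereas *Gja5*, *Rgcc* and *Nr2f2* reached adjusted p-values of 0.112, 0.103 and 0.114. Among the genes that rose most was *Tll1* (170 against 47.6 CPM), and among those that fell most were *Alpl*, alkaline phosphatase (2.13 against 98.5 CPM), and the mural gene *Pdgfrb* (0.787 against 28.2 CPM). Over mice, the 5 mural genes summed to a median of 145 CPM (104–694) in positive and 437 CPM (228–911) in negative cells. The medians were 25.4 and 90.7 CPM for the 5 fibroblast genes and 47.5 and 286 CPM for the 5 keratinocyte genes. The median positive cell was deeper (medians over mice 301931 and 234808 reads). The part of these in the contrast was not tested.

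Of 14 genes known from tip cells, 9 had negative and 5 positive values in *Apln*-positive against *Apln*-negative BECs, by either rule. By 1 thinned read 0 of 14 tip and angiogenic genes were called by edgeR (5 at an unadjusted p under 0.05, and 5 by DESeq2), with a median of −0.23 against 0.02 over all genes. At 100 CPM the adhesion molecule *Mcam* rose (0.67 ± 0.09) and the netrin receptor *Unc5b* fell, with 8 of 14 at an unadjusted p under 0.05 and 7 called by DESeq2. The median was −1.12 against −0.06 over all genes. At 100 CPM 0.635% of all genes were called higher and 1.11% lower. There 1974 of 15440 genes had an unadjusted p under 0.05, and DESeq2 called 1380. By 1 thinned read 1387 of 15326 genes had an unadjusted p under 0.05, and DESeq2 called 752. *Esm1* (−3.77 ± 0.89, adjusted p = 0.0727), *Dll4* (−1.89 ± 0.43, adjusted p = 0.0636) and *Angpt2* (−1.52 ± 0.79, adjusted p = 0.486) had negative values that did not pass in edgeR.

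In *Aplnr*-positive against *Aplnr*-negative BECs, 1 of 7 capillary markers passed by the rule of 1 thinned read and 5 of 7 at 100 CPM. By 1 thinned read 4 of 15390 genes were called (0.026%, with 0.0195% higher and 0.0065% lower). *Rgcc*, a cell cycle regulator and capillary marker, was at 299 against 134 CPM (1.22 ± 0.14, adjusted p = 0.0372, and up to 0.147 with a mouse left out). *Tcim* (1.12 ± 0.12) and the VEGF and semaphorin co-receptor *Nrp1* (0.83 ± 0.10) also rose, and *Edn1*, which encodes endothelin-1, fell from 210 to 110 CPM (−0.93 ± 0.11). With a mouse left out 0–6 genes were called. The count was 0 without control 1, control 2 or mutant 2, when 1426, 1303 and 1341 genes had an unadjusted p under 0.05, and DESeq2 called 658 genes over all mice.

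At 100 CPM 162 of 15284 genes were called (1.06%, with 0.641% higher and 0.419% lower), and 54–87 with a mouse left out (fewest without mutant 3). Of the capillary markers 5 of 7 rose: *Car4*, carbonic anhydrase 4 (3.12 ± 0.59), *Rgcc* (1.16 ± 0.14), *Cd36* (0.97 ± 0.16), *Gpihbp1*, the lipoprotein lipase anchor (0.88 ± 0.08), and *Fabp4* (0.64 ± 0.09). Of the arterial markers 4 of 7 fell, *Gja5* (−3.55 ± 0.52), *Gja4* (−2.91 ± 0.27), *Sema3g* (−2.22 ± 0.28) and *Hey1* (−1.32 ± 0.24). Of the venous markers *Ephb4* rose (0.35 ± 0.06). *Rgcc*, *Gpihbp1*, *Fabp4*, *Gja4* and *Sema3g* passed whichever mouse was left out, and *Car4*, *Cd36*, *Gja5*, *Hey1* and *Ephb4* did not. The medians were 0.97, −1.37 and 0.10, against 0.01 over all genes. *Cd36*, *Car4* and *Rgcc* thus had opposite signs in the contrasts of the ligand and the receptor, while *Gja4*, *Gja5*, *Sema3g* and *Hey1* fell in both. The contrasts use the same cells and their difference was not tested. Markers of other cells moved too: *Krt10*, *Col3a1* and *Acta2* fell in *Aplnr*-positive cells, where the summed fibroblast genes had a median over mice of 19.3 against 85.9 CPM and the mural genes 228 against 443 CPM. Their part in the contrast was not tested.

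**Figure D5:**
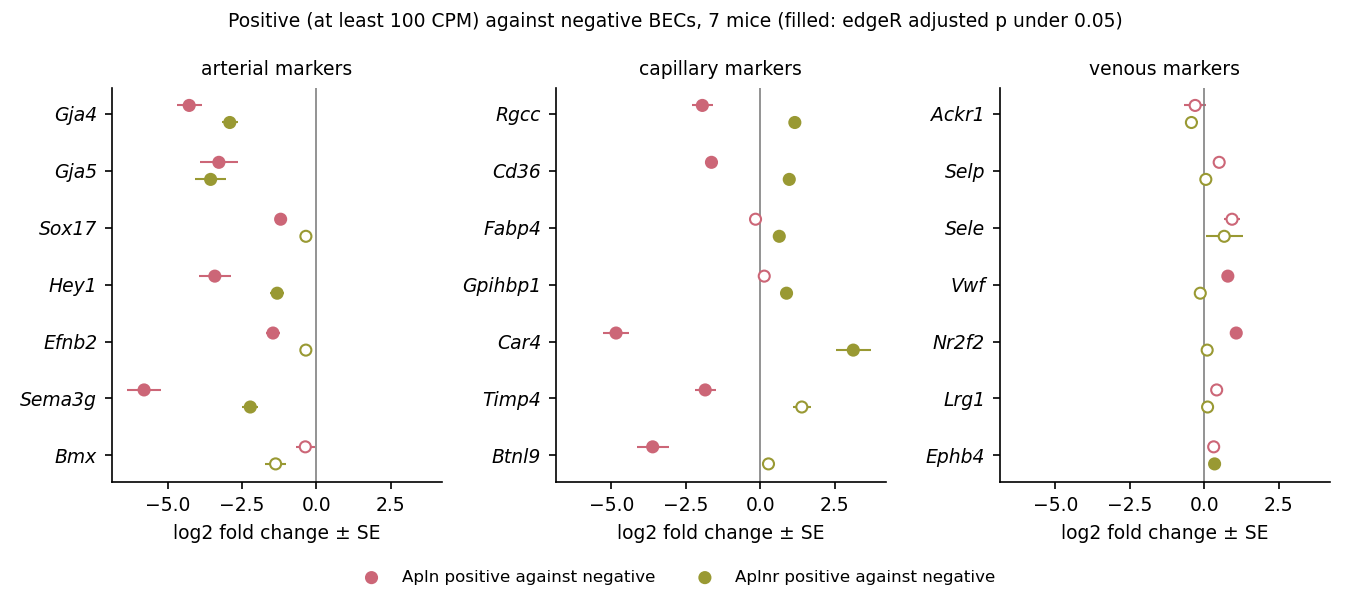
Log2 fold change ± SE of arterial, capillary and venous markers in BECs positive (at least 100 CPM) against negative for *Apln* (red) and *Aplnr* (olive), with the mouse as a block (n = 7); filled points passed edgeR's adjusted p of 0.05. Arterial markers lie below 0 for both genes, and *Rgcc*, *Cd36* and *Car4* lie below 0 for *Apln* and above 0 for *Aplnr*.

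The genes whose pattern over BECs was most like each member were also distinct. Likeness was the mean over 7 mice of Spearman's rho across the BECs of a mouse, over 9396 genes with a thinned read in at least 10% of BECs. For *Apln* the first were *Mmp2*, a matrix metalloproteinase (mean rho 0.44, range −0.02 to 0.61), *Tmsb10* (0.44, 0.15 to 0.61), the glycolytic enzyme *Pkm* (0.40, 0.11 to 0.67), *Ehd4* (0.40), *Prcp* (0.39), *Itih5* (0.39), *Bgn* (0.37) and the prostaglandin transporter *Slco2a1* (0.36). *Prcp* encodes a carboxypeptidase that is known to trim apelin. For *Aplnr* they were *Aqp1* (0.37, 0.24 to 0.54), *Cd36* (0.33), *Rgcc* (0.32), *Trp53i11* (0.32), *C1qtnf9* (0.31), the collagen gene *Col4a1* (0.31), *Slc28a2* (0.30) and *Fscn1* (0.30). *Aplnr* ranked 8691 among the genes like *Apln*, and *Apln* 5459 among those like *Aplnr*.

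Among the other genes of the apelin system, none of the coupling and handling list was called by edgeR with genotype. Of 15 tested genes for receptor coupling and ligand handling, 0 were called in mutant against control BECs by edgeR (4 at an unadjusted p under 0.05, 3 by DESeq2), and 0 of 14 in LECs (1 and 1). *Furin* and *Pcsk7*, which encode proprotein convertases, were at −0.02 ± 0.22 and 0.12 ± 0.22 in BECs, and *Gnai2*, a G protein subunit, at 0.31 ± 0.19. Of 10 genes linked to apelin signalling 0 were called in BECs (2 at an unadjusted p under 0.05, 1 by DESeq2), where *Klf2*, *Klf4* and *Nos3* were at −0.71 ± 0.27, −0.62 ± 0.29 and 0.02 ± 0.17. In LECs *Fgfr1*, a growth factor receptor, rose (0.98 ± 0.14, adjusted p = 0.0173). The list medians in BECs were 0.31 and −0.12, against 0.01 over all genes. Over all genes tested, edgeR called 2.12% in BECs and 2.76% in LECs. An unadjusted p under 0.05 was found for 3793 of 19315 genes in BECs and 3963 of 19758 in LECs, and DESeq2 called 2238 and 2490.

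Hypoxia and tip genes, in whose company *Apln* is known from other settings, were listed as well. Of 12 hypoxia genes 2 rose in mutant BECs, the glycolytic enzymes *Pgk1* (1.39 ± 0.19, adjusted p = 0.0117) and *Ldha* (0.89 ± 0.13, adjusted p = 0.0172), and the median was 0.71. Over all genes tested in BECs, 1.51% were called higher and 0.611% lower. *Slc2a1* and *Vegfa* had 0.91 ± 0.45 and 0.54 ± 1.46 and did not pass. Of 14 tip and angiogenic genes 1 fell, the Notch ligand *Dll4* (−1.24 ± 0.22, adjusted p = 0.0306), and *Esm1* was at −3.09 ± 0.74 (adjusted p = 0.0724). In LECs 1 hypoxia gene rose, *Pgk1* (0.91 ± 0.19, adjusted p = 0.0449), as did 3 of 12 tip genes, *Pgf* (1.89 ± 0.31), *Trp53i11* (1.63 ± 0.32) and *Mcam* (1.07 ± 0.21). Over all genes tested in LECs, 1.96% were called higher. In BECs the venous markers *Selp*, *Sele* and *Nr2f2* rose (2.31 ± 0.27, 2.12 ± 0.23 and 1.74 ± 0.28) and the arterial *Efnb2* fell (−0.93 ± 0.19). *Selp* and *Sele* were called whichever mouse was left out, *Selp* with an adjusted p of 0.05 without control 2. In BECs the highest adjusted p with a mouse left out was 0.134 for *Dll4* (lost without either control, mutant 1 or mutant 2), 0.148 for *Efnb2* (lost without any of the 7), 0.0584 for *Nr2f2* (without control 2, mutant 2 or mutant 3), 0.0576 for *Ldha* (without control 1 or mutant 3) and 0.0542 for *Pgk1* (without either control). In LECs the calls of *Pgk1*, *Mcam*, *Trp53i11*, *Pgf* and *Fgfr1* were also lost without either control or mutant 3, among others, with adjusted p-values up to 0.117, 0.144, 0.127, 0.0865 and 0.0592. These are changes in the same sums of BECs as that of *Apln*, and no set test was made.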

How the data were processed

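Single endothelial cells of mouse ear skin had been sorted into plates and sequenced by Smart-Seq2. According to the submitters' processing notes, the authors aligned reads with TopHat2 2.1.1, handled them with SAMtools 0.1.18 and counted them with featureCounts (Subread) on GRCm38, with R 3.5.1 and Seurat 3.1.1 downstream. The annotation version is not given in the sources used here. The deposited tables hold raw counts per gene and well, without molecular identifiers, in 9 plates of 384 wells from 7 mice. Control 3 was not analysed here.

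Wells were kept from 200 genes and 50000 reads upwards if mitochondrial genes took no more than 10% of reads, and cells were assigned by the gate of 300 CPM. No doublet caller was run. Cells with both marker sums at or above 300 CPM were left out as an alternative. That left 58–152 of 175–367 LECs and 125–302 of 157–330 BECs per mouse. The median LEC held 400–588 CPM of the BEC markers of the gate, so most LECs were lost and need not be doublets. Counts were summed per mouse and class (both plates of mutants 3 and 5 together) and tested with edgeR 4.0.16 (quasi-likelihood, Benjamini-Hochberg adjustment over all genes tested) in R 4.3.3, with DESeq2 1.42.0 as an alternative. Positive and negative BECs were compared with the mouse as a block, for mice with at least 5 cells in each. Shares were counted after thinning each cell to 50000 reads and compared by exact permutation over mice. Wilson intervals (95%) cover counting error only. Clusters came from 2000 variable genes, 30 principal components, 20 neighbours and Leiden resolution 1, without *Apln* and *Aplnr*. The code was tested on simulated data.

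The members and gene lists were chosen with earlier results of these data known. In the contrasts of positive cells, the genes named were the 8 called genes of largest change in each direction that moved the same way in every mouse and averaged log2 CPM 3 or more, fewer being printed at 100 CPM. A withheld item is not reported here. For likeness, the first 8 genes were named. Alternatives covered normalisation, the expression filter, the gate, the positive rule, thinning, plates, cycling cells, sex, plate series and each mouse left out.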

Additional observations from a re-analysis of the deposited data

Results flagged for a closer look

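In 12 sets of values from the same 5 mutant mice, a single mouse was tested for standing far from the others. Chance passes such a test in about 1 in 20 sets, but these sets share mice and measures and are not independent. *Apln* in mutant LECs was 44.9 CPM in mutant 1 against 6.42–13.2 CPM in the other mutants, a gap of 0.824 of the group's range. *Aplnr* in mutant BECs was 490 CPM in mutant 5 against 855–977 CPM in the other mutants, a gap of 0.750 of the range.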

How the results depend on the processing

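Mutant against control. *Apln* in BECs was called in 17 of 19 alternatives (log2 change 2.1–3.16). The exceptions were the plate series as a covariate (2.1) and the replicate block (2.82, edgeR adjusted p = 0.109). The block pairs different mice that share only a number, since same-numbered mice come from no common animal. It reduced the BEC calls from 410 to 0 (2710 genes at an unadjusted p under 0.05) and the LEC calls from 546 to 3. DESeq2 called 2238 and 2490 genes, the plate series left 54 and 178, and the LECs without cycling cells 82. *Aplnr* in BECs reversed with the plate series (−0.48). *Apln* in LECs was called by DESeq2 (3.64) and with the gate of 1000 CPM (2.82). The difference between BECs and LECs had 42 calls, against 1253 by DESeq2, 125 at the gate of 1000 CPM and 22 without cells of both marker sums. There the *Apln* difference turned to 0.0042 and 0.28. With a mouse left out the BEC calls were 159 (without mutant 3) to 586 (without mutant 5), the LEC calls 153 (without mutant 3) to 546, the calls for the difference 0 to 21, and the *Apln* difference −1.26 (without control 1) to 0.23 (without control 2).

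Positive against negative BECs. The 65 calls for *Apln* became 752 by DESeq2, 106 from thinned cells, 0 with unthinned positives (1238 genes at an unadjusted p under 0.05), 209 above 1 read, 269 at 100 CPM, 164 in mutants alone, and 0 to 147 with a mouse left out. Unthinned positives reversed *Aplnr* (0.44) and *Msx1* (0.073). The 4 calls for *Aplnr* became 658 by DESeq2, 17 unfiltered, 36 from thinned cells, 19 on first plates, 1 at the gate of 1000 CPM, 7 without cells of both marker sums, 0 with unthinned positives (1194 at an unadjusted p under 0.05), 65 above 1 read, 162 at 100 CPM, 1 in mutants alone, and 0 to 6 with a mouse left out. Unthinned positives reversed *Edn1* (0.17), and DESeq2 called *Apln* (0.56). At 100 CPM DESeq2 called 1380 and 890 genes and again *Apln* in *Aplnr*-positive cells (0.55), and leaving out a mouse gave 64 to 392 and 54 to 87 calls.

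Shares. The *Aplnr* difference in BECs of 1.64 points turned to −10.6 for mutant 5 alone, −2.71 without thinning and −2.19 at 100000 reads, and ranged from −4.85 to 8.12 with a mouse left out. In LECs it ranged from −22.3 to 8.85. The co-detection ratio was 1.11 at 100 CPM. The cause of these shifts was not tested. With 2 controls, exact permutation p-values cannot fall under 0.0952, so the shares cannot pass 0.05.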

Other observations

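The 117 cells of neither gate also held reads of both genes. *Apln* in their sums was 3.62–732 CPM in the 5 mutants and 1.16 and 41.6 CPM in the controls, and *Aplnr* was 1.81–487 CPM and 4.05 and 53.5 CPM. Each mouse contributed 3–29 such cells.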
